A study of Mus musculus with 10 samples.

Results

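The zona pellucida and oocyte-secreted factor genes are *Zp1*, *Zp2*, *Zp3*, *Gdf9*, *Bmp15* and *Oosp1*. They were followed through every 5 kb window that the deposited H3K4me3 table assigned to 1 of these 6 gene names. This gave 19 of 544879 windows, with 3 for *Zp1*, 4 for *Zp2*, 2 for *Zp3*, 1 for *Gdf9*, 3 for *Bmp15* and 6 for *Oosp1*. The window that holds the *Gdf9* transcription start site (TSS) carries the name of its neighbour *Uqcrq* in the table, so it is not one of the 19. It was added because H3K4me3 is a promoter mark, and it is named wherever it is used.

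The zona pellucida is the extracellular coat that a growing oocyte builds around itself, and sperm bind to it at fertilization. Its glycoproteins, ZP1, ZP2 and ZP3, are made by the oocyte and assemble into cross-linked filaments. GDF9 and BMP15 are TGF-beta family ligands that the oocyte secretes to the surrounding granulosa cells, where they support follicle growth and cumulus expansion, and OOSP1 is a small secreted protein of the oocyte. H3K4me3, trimethylation of lysine 4 of histone H3, marks the promoters of active genes and many CpG islands, and SETD1B is a methyltransferase that deposits it.

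The series compared H3K4me3 in fully grown germinal vesicle (GV) oocytes with and without *Setd1b*. Ultra-low input native ChIP-seq, in which nuclei are digested with micrococcal nuclease without crosslinking, was done on pools of approximately 200 oocytes from 21-day-old C57BL6 females. The *Setd1b* cKO oocytes were Setd1b floxed/floxed and Gdf9-Cre positive, so that Cre recombinase driven by the *Gdf9* promoter deleted *Setd1b* in oocytes during their growth. The WT oocytes were labelled Setd1b floxed/floxed and Gdf9-Cre negative, although the methods of the study also allow heterozygous females with Cre among its WT animals. There were 3 H3K4me3 libraries (cKO replicates 1, 3 and 4, WT replicates 1, 2 and 4) and 2 input libraries (replicates 1 and 4) per genotype. In a pool, fewer oocytes with the mark and less of the mark in each oocyte cannot be told apart.

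The H3K4me3 libraries held 10856015 to 32775874 reads in windows and the input libraries 20756128 to 26566505. The normalization of the authors set the 40th and the 99th percentile of each H3K4me3 library to 1.23 and 6.77 normalized RPKM. Before it, the reads per window at the 99th percentile were 13.5 times those at the 40th in cKO 1 and 14.3 times in WT 1. The same ratio was 3.47 in cKO 3, 3.88 in cKO 4, 5.38 in WT 2 and 6.97 in WT 4, so the libraries differed in enrichment. A window with 0 reads was given 0.785, -1.02 and -0.700 in cKO 1, 3 and 4 and 0.810, -0.0359 and 0.300 in WT 1, 2 and 4, so that the lowest windows read lower in the cKO by construction. At the *Setd1b* promoter window, the cKO libraries were at 4.50, 4.66 and 3.93 and the WT libraries at 7.56, 7.65 and 6.11, and the mark fell by 2.74 (limma, adjusted p = 0.0332), which is no check of the deletion itself.

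The promoters of 3 members had an entry under their symbol in a RefSeq table of mouse promoters (GRCm38.p6), and *Zp1*, *Zp2* and *Gdf9* had none. The 250 bases before each start are shown because all 3 stretches lie in or beside windows in which the cKO libraries were below the WT libraries. Capitals mark matches, on either strand, to the E-box CANNTG (N is any base), to the TATA box TATAAA or to the homeobox element TAATTG, and no match overlapped another. E-boxes are bound by basic helix-loop-helix factors, of which FIGLA is known to act on zona pellucida genes, and NOBOX is a homeobox factor known to act on *Gdf9* and *Bmp15*. The *Zp3* stretch is chr5:135979855-135980104 on the plus strand, the *Bmp15* stretch is chrX:6320725-6320974 on the minus strand and the *Oosp1* stretch is chr19:11691052-11691301 on the minus strand.
Zp3: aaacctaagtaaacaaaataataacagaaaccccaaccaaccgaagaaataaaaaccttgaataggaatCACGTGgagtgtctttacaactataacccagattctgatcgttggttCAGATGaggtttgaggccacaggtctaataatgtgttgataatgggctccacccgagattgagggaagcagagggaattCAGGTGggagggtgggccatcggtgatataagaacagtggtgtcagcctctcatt
Bmp15: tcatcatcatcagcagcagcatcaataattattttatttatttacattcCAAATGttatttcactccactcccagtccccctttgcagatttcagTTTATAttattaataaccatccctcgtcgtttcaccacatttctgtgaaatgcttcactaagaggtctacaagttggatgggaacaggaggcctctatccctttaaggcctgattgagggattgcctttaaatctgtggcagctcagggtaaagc
Oosp1: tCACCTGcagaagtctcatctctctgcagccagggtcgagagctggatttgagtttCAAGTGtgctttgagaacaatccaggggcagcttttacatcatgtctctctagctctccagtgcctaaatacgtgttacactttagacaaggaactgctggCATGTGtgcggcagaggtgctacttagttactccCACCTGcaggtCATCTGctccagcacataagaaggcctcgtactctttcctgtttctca

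Counted from -1 at the last base before the start, the 3 E-boxes of *Zp3* began at -181, -134 and -55, and the 5 of *Oosp1* at -249, -194, -93, -59 and -48. *Bmp15* held 1 E-box at -201 and 1 TATA box, on the opposite strand, at -155. No stretch held TAATTG. Of 32817 promoter stretches of this length in the table, 66.2% held an E-box, 12.4% the TATA box and 7.17% TAATTG, so an E-box match is common. The 3 promoters were not rich in CpG: *Zp3* held 5 CpG dinucleotides, *Bmp15* 2 and *Oosp1* 4, against a median of 6.

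At the promoters, the mark was lower in the cKO at all 3 zona genes, at *Bmp15* and at *Oosp1*. It was higher at the window of the *Gdf9* TSS, which also holds the TSS of *Uqcrq*. In each of the 6 promoter windows the 3 cKO libraries and the 3 WT libraries did not overlap. Of the 48576 windows that hold a TSS, 22.1% were separated in this way, 9.38% with the cKO below and 12.7% with the cKO above. Among the 8946 of them with a WT mean between those of *Zp3* and *Bmp15*, 15.1% had the cKO below and 6.06% the cKO above, a split that choosing by the WT mean itself favours. None of the 6 differences was called, that is passed the limma test at a p under 0.05 adjusted over all windows (adjusted p = 0.0598 to 0.255), and all 6 had an unadjusted p under 0.05, as did 19.7% of the windows that hold a TSS. By RPM, the reads in a window scaled to the depth of the library, which leaves the unequal enrichment as it was, only *Zp2* and *Zp3* of the 6 did not overlap. An exact permutation test of 3 against 3 libraries gave the smallest two-sided p it can reach, 0.1, at each of them.

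**Figure D1:**
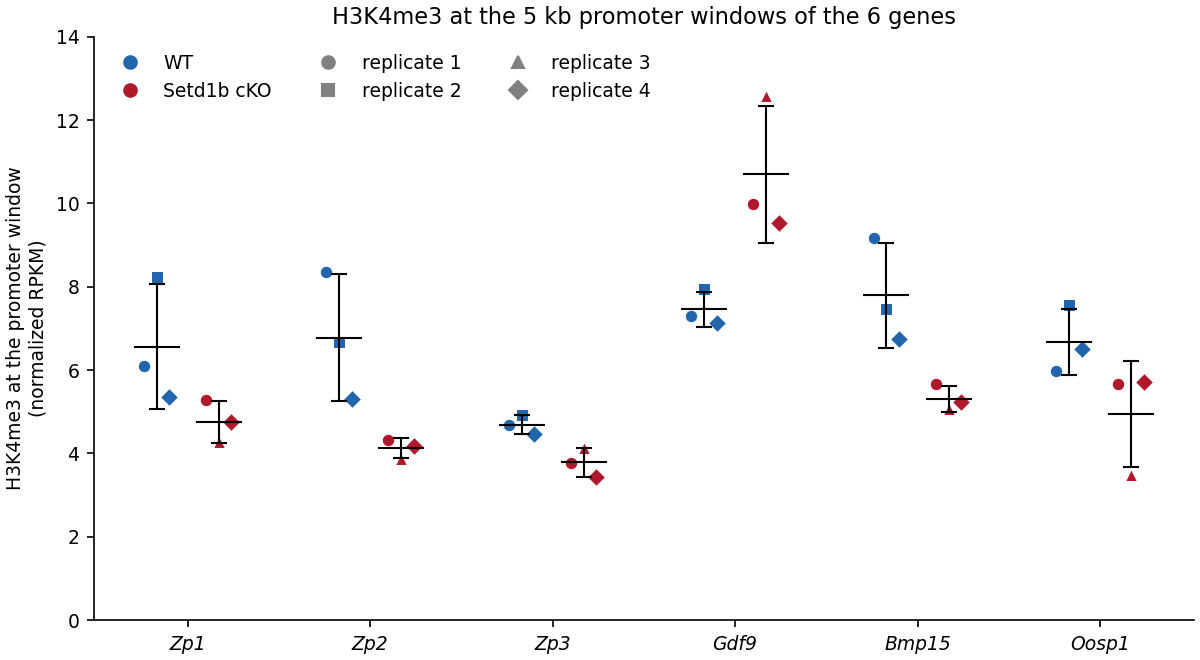
H3K4me3 (normalized RPKM, y axis) at the 5 kb promoter window of each gene, with 1 point per library (blue, WT; red, *Setd1b* cKO; the symbol gives the replicate), a horizontal line at the group mean and bars of ± 1 SD. The red points lie below the blue points at *Zp1*, *Zp2*, *Zp3*, *Bmp15* and *Oosp1* and above them at *Gdf9*.

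*Zp1*, whose product cross-links the filaments of the coat, lies on chromosome 19 from 10914287 to 10920632 on the minus strand (GRCm38). Its promoter window, chr19:10920001-10925000, measured 5.28, 4.27 and 4.75 normalized RPKM in cKO 1, 3 and 4 and 6.09, 8.23 and 5.37 in WT 1, 2 and 4. The cKO values were close together, and WT 2 stood well above the other WT libraries. The mean was 4.76 ± 0.506 in the cKO and 6.56 ± 1.49 in the WT (SD, n = 3 each), a difference of -1.80 with a standard error of 0.651 (limma, adjusted p = 0.223), or -0.97 without WT 2. In the next window, inside the gene, the cKO libraries spread from 2.39 to 6.25 around the WT libraries at 2.43 to 3.66, with no order between genotypes. The third *Zp1* window, which runs past the end of the gene, was at 2.58 in the cKO and 2.48 in the WT.

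*Zp2*, the zona protein that is cleaved after fertilization, showed the only change among the 19 windows that passed the test. The gene lies on chromosome 7 from 120126772 to 120145291 on the minus strand, and its TSS is only 290 bp inside its promoter window, which therefore covers mainly sequence upstream of the gene. That next window, chr7:120140001-120145000, covers the start of the gene and measured 3.11, 3.47 and 2.87 in the cKO and 5.62, 5.80 and 5.22 in the WT. The cKO libraries were far below the WT libraries and both groups were tight. The fall was 2.39 with a standard error of 0.352 (limma, adjusted p = 0.0235). This 1 call in 19 windows compares with 1.02% of all windows called in either direction and 0.454% called as a loss. The call was lost in 12 of 18 alternative settings of the analysis, among them edgeR on whole reads (adjusted p = 0.274) and the fits without cKO 4, WT 1, WT 2 or WT 4 (0.0811 to 0.107), and the direction held in all 18.

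The *Zp2* promoter window itself, chr7:120145001-120150000, measured 4.33, 3.87 and 4.17 in the cKO and 8.34, 6.68 and 5.31 in the WT. The cKO libraries were close together and the WT libraries were widely spread. The difference was -2.65 with a standard error of 0.640 (adjusted p = 0.0826), and 157 of the 48576 windows with a TSS (0.323%) differed by as much or more in this direction. The next windows along the gene, chr7:120135001-120140000 and chr7:120130001-120135000, lay at 1.18 to 2.30 in the WT and 1.17 to 2.15 in the cKO, and the groups overlapped. The difference at *Zp2* was seen in the windows on either side of the TSS and not in those toward the end of the gene.

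*Zp3*, which encodes the zona protein long studied as a sperm receptor, lies on chromosome 5 from 135980099 to 135988624 on the plus strand. Its TSS is 98 bp from the edge of its promoter window, chr5:135980001-135985000, so that nearly all of the window is gene body. This window measured 3.78, 4.13 and 3.45 in the cKO and 4.68, 4.93 and 4.47 in the WT. The groups were tight and did not overlap, and the difference of -0.90 (SE 0.349, adjusted p = 0.255) was the smallest of the 6 promoters. The window just upstream, which carries no gene name in the table and contains the *Zp3* sequence shown above up to the window edge, measured 3.67, 4.00 and 5.38 in the cKO and 6.25, 5.70 and 5.40 in the WT. It was higher than the promoter window in the WT, and the difference of -1.43 (SE 0.481, adjusted p = 0.189) again did not pass. The last *Zp3* window was low in both genotypes, at 1.76 in the cKO and 1.28 in the WT.

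*Bmp15* lies on chromosome X from 6314107 to 6320721 on the minus strand. Its promoter window, chrX:6320001-6325000, measured 5.67, 5.06 and 5.23 in the cKO and 9.18, 7.46 and 6.74 in the WT. The lowest WT library was clear of the highest cKO library. The means were 5.32 ± 0.313 and 7.79 ± 1.25 (SD, n = 3 each), and the difference of -2.48 (SE 0.564, adjusted p = 0.0710) was met or exceeded in this direction by 235 windows with a TSS (0.484%). The windows behind the promoter also had lower means in the cKO. The next window measured 3.23, 3.74 and 2.34 in the cKO and 5.0, 4.73 and 4.38 in the WT, a difference of -1.60 (SE 0.422, adjusted p = 0.104). The last window measured 1.06, 0.965 and 1.08 in the cKO and 1.49, 2.40 and 1.38 in the WT (difference -0.72, adjusted p = 0.418). It held 5 to 37 reads in the cKO and 13 to 36 in the WT. In all 3 *Bmp15* windows the groups did not overlap on the deposited scale, with the cKO below, as in 9.95% of all windows, and none passed the test. By RPM the groups overlapped in the first and the last of the 3 and did not in the second.

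*Oosp1* is the longest of the 6 genes, on chromosome 19 from 11667460 to 11691150 on the minus strand. Its promoter window, chr19:11690001-11695000, measured 5.67, 3.47 and 5.71 in the cKO and 5.99, 7.55 and 6.50 in the WT. Here cKO 3 was far below the other cKO libraries, and cKO 1 and cKO 4 came close to the lowest WT library. The difference was -1.73 (SE 0.630, adjusted p = 0.226), and without cKO 3 it was -0.99. Of the 5 windows behind the promoter, 4 lay at 0.97 to 1.71 in the WT and at 0.62 to 1.60 in the cKO, with overlapping groups. The exception was the window that holds the end of the gene, chr19:11665001-11670000, with 2.23, 1.49 and 2.15 in the cKO and 3.06, 3.27 and 3.42 in the WT (difference -1.29, SE 0.354, adjusted p = 0.114). The window upstream of the *Oosp1* promoter was higher than the promoter in both means, at 6.33 in the cKO and 7.09 in the WT against 4.95 and 6.68, with overlapping groups.

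**Figure D2:**
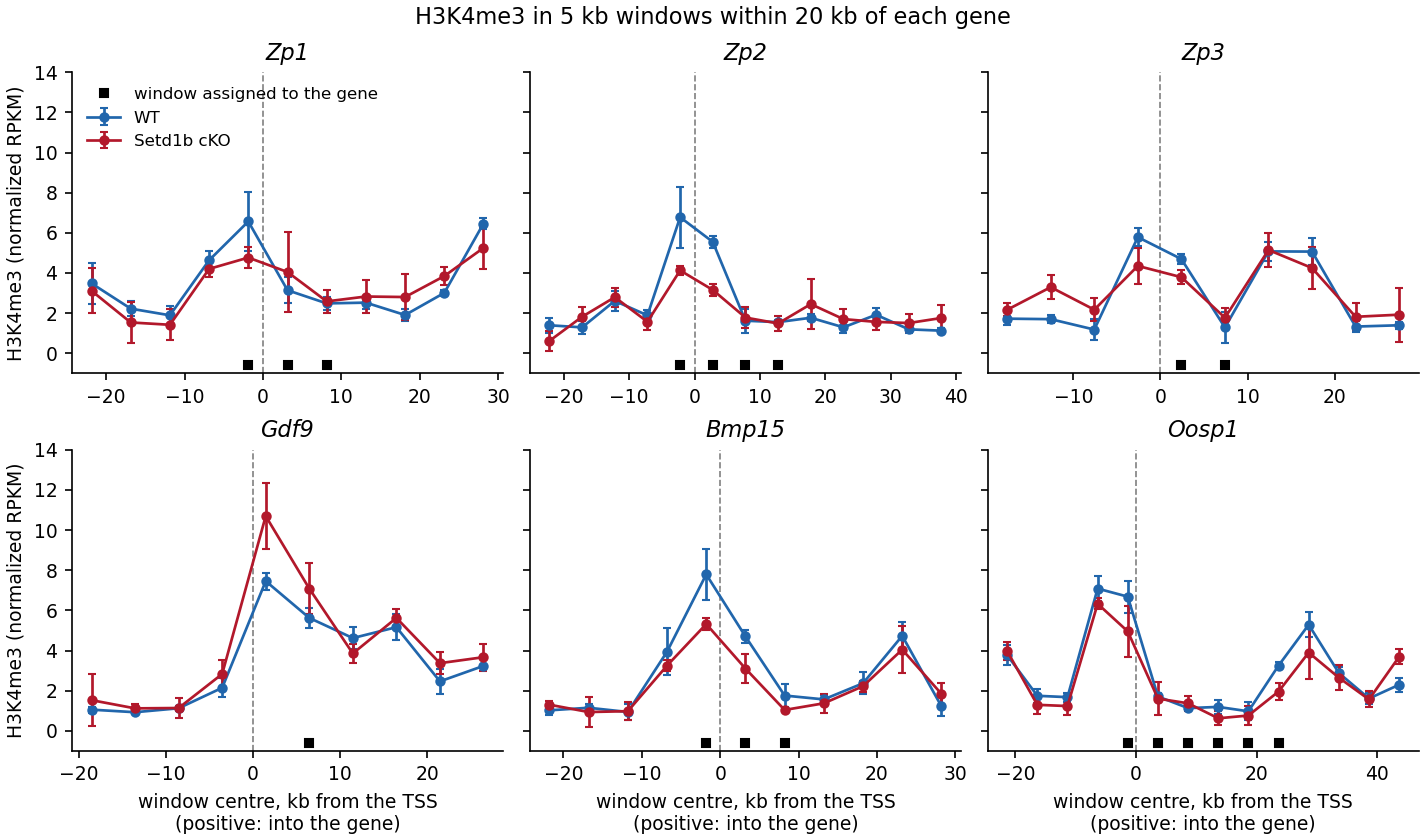
H3K4me3 (normalized RPKM, y axis) in each 5 kb window within 20 kb of the 6 genes, by the distance of the window centre from the TSS (kb, x axis, positive into the gene), as the mean ± SD of 3 WT (blue) and 3 *Setd1b* cKO (red) libraries, with black squares under the windows assigned to the gene. The WT exceeds the cKO at the TSS of 5 genes, the cKO exceeds the WT at *Gdf9*, and the lines run close together in most other windows.

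*Gdf9* went the other way. The gene lies on chromosome 11 from 53431023 to 53437904 on the plus strand, and its promoter window, chr11:53430001-53435000, also holds the TSS of *Uqcrq*, which encodes a subunit of mitochondrial complex III. In a 5 kb window the mark at the *Gdf9* promoter and that at the *Uqcrq* promoter cannot be told apart. The window measured 9.99, 12.6 and 9.52 in the cKO and 7.30, 7.94 and 7.13 in the WT. Every cKO library was above every WT library, and cKO 3 was the highest. The means were 10.7 ± 1.65 and 7.46 ± 0.427 (SD, n = 3 each), a difference of 3.24 with a standard error of 0.693 (limma, adjusted p = 0.0598). By the cKO mean this window ranked 1 of all 544879 windows (11, 1 and 54 in cKO 1, 3 and 4), and by the WT mean it ranked 1445. A difference as high was found in 62 of the 48576 windows with a TSS (0.128%).

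The 1 window assigned to *Gdf9*, chr11:53435001-53440000, covers the end of the gene and measured 5.67, 8.09 and 7.50 in the cKO and 6.20, 5.22 and 5.46 in the WT. Here cKO 1 lay within the WT range, and the difference of 1.46 (SE 0.586) did not pass (adjusted p = 0.274). It was 2.17 and called without cKO 1 (adjusted p = 0.0351), and 0.96 without cKO 3. It turned to -0.025 (log2) in edgeR on whole reads and to -0.48 with division by input in replicates 1 and 4. Upstream of the promoter, chr11:53425001-53430000 measured 2.06 to 3.35 in the cKO and 1.83 to 2.69 in the WT, and the 3 windows farther upstream had means of 1.12 to 1.53 in the cKO, where cKO 3 reached 2.95, and 0.924 to 1.12 in the WT.

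The cKO oocytes carried a Cre transgene driven by the *Gdf9* promoter and the WT oocytes were labelled as Cre negative, so the input, which is the digested chromatin without immunoprecipitation, was compared at the same windows. At the *Gdf9* promoter window the input was 3.42 and 3.00 RPM in cKO 1 and 4 and 2.17 and 1.85 in WT 1 and 4, from 44 to 77 reads per library. Both cKO libraries exceeded both WT libraries, 1.60 times in the mean, as happened in 14.9% of all windows. The log2 difference was 0.56 with a standard error of 0.109 and lay above that of 99.6% of windows. Its unadjusted p was 0.0174 in limma (7.04% of windows were under 0.05) and its adjusted p was 0.697. No window of the genome was called on input in this fit, with 38337 windows under an unadjusted p of 0.05, and edgeR called 4.

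In the other 5 promoter windows the input ratio ran from 0.808 at *Zp1* to 1.34 at *Zp2*, with an unadjusted p of 0.291 or more in limma. At *Zp2* the log2 difference in input was 0.38, but 0.039 without WT 4 and 0.71 without WT 1 (unadjusted p = 0.00909, adjusted p = 0.556). The *Gdf9* window behind the promoter had a ratio of 1.20 and the window before it 0.900, and the ratio was highest at the window of the TSS among the windows plotted around *Gdf9*. The *Gdf9* TSS lies 1022 bp from the upstream edge of its window, so most of this window is on the gene side of the TSS. Reads of a transgene copy of the promoter and of the native gene cannot be told apart in these windows.

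**Figure D3:**
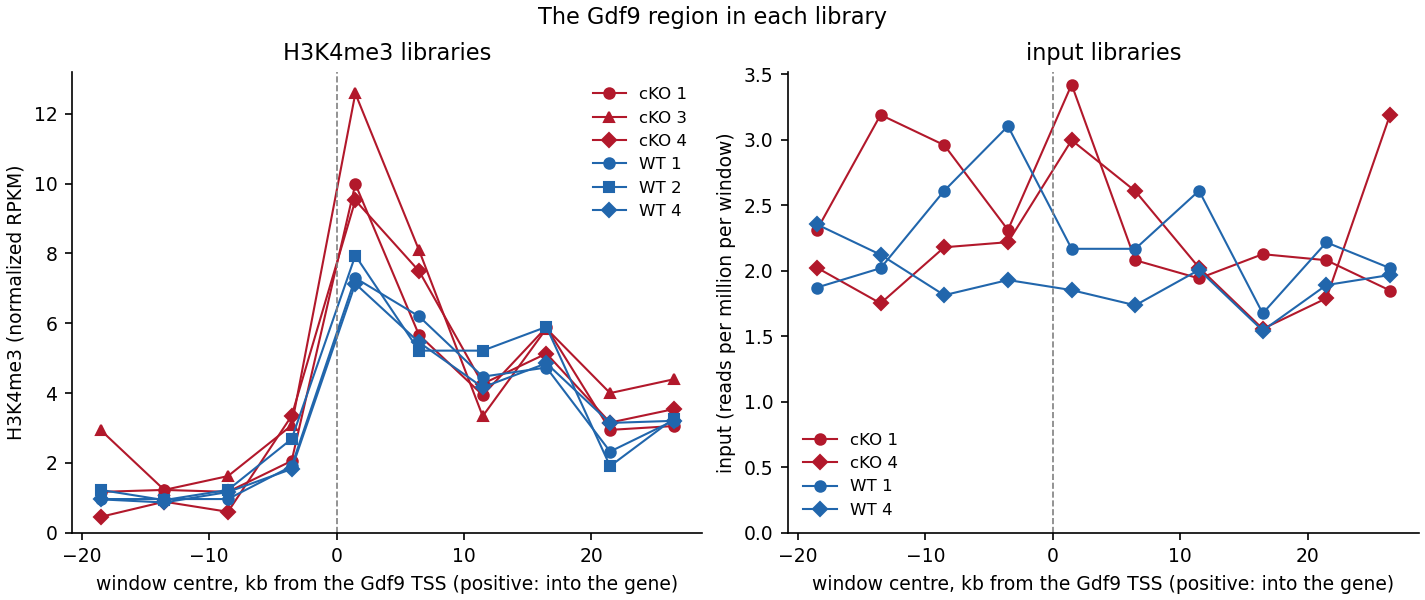
H3K4me3 (left, normalized RPKM) and input (right, RPM per window) in each library in the 5 kb windows within 20 kb of *Gdf9*, by the distance of the window centre from the TSS (kb, positive into the gene), with *Setd1b* cKO libraries in red and WT libraries in blue. In the window of the TSS all 3 cKO libraries are above the WT libraries in H3K4me3, and both cKO input libraries are above both WT input libraries.

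For replicates 1 and 4, which had an input of the same genotype and number, the H3K4me3 reads at the *Gdf9* promoter window were 13 RPM in cKO 1 against 9.48 in WT 1 and 7.30 in cKO 4 against 6.96 in WT 4. Divided by the input of the same window, these became 3.89 and 2.49 in cKO 1 and 4 and 4.47 and 3.85 in WT 1 and 4, and the genotypes overlapped, since cKO 1 was just above WT 4. For the fit, the deposited value above that of a window without reads was divided by input. The input was taken relative to its mean over the 4 input libraries in that window. The libraries were not normalized again after this division, so any unequal scaling it left was not corrected. On this scale *Gdf9* stood at 7.81 and 8.20 in the cKO and at 8.62 and 9.93 in the WT. The difference was -1.27 (limma, adjusted p = 0.592), where the same 4 libraries without division differed by 2.54. The division turned the direction at *Gdf9*.

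The same division left *Zp2*, *Zp3*, *Bmp15* and *Oosp1* lower in the mean of the cKO. *Zp2* stood at 3.93 and 3.50 in the cKO and 7.61 and 8.60 in the WT, and *Bmp15* at 6.22 and 5.22 against 8.25 and 6.91, both without overlap. The difference at *Zp2* was -4.39, against -2.57 without division. The WT 4 input there held 32 reads, against 46 to 61 in the other input libraries. The mean difference at *Zp3* rested on WT 4 at 7.88, with WT 1 at 3.71 close to the cKO at 3.39 and 3.59. At *Zp3* the WT 4 input held 31 reads, against 54 to 59 in the other input libraries. *Oosp1* overlapped, with the cKO at 5.37 and 5.83 and the WT at 5.46 and 7.69. *Zp1* turned from lower to slightly higher, by 0.22 (adjusted p = 0.949), with WT 1 at 6.74 and WT 4 at 4.13 on either side of the cKO libraries at 5.51 and 5.81. With 2 libraries per genotype no window in the genome passed the test after this division.

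By level, the WT order of the promoter windows was *Bmp15* (7.79), *Gdf9* (7.46), *Zp2* (6.78), *Oosp1* (6.68), *Zp1* (6.56) and *Zp3* (4.69). Only the step from *Zp1* to *Zp3* held in all 3 WT libraries, and the other neighbours changed places between libraries. *Bmp15* was above 99.9% of all windows in the WT and *Zp3* above 92.5%. In the cKO the corresponding shares were 95.8% for *Bmp15*, 94.0% for *Oosp1*, 93.0% for *Zp1*, 88.7% for *Zp2* and 86.0% for *Zp3*, so these promoters lay above most windows in both genotypes. The members differed in CpG content, with 123 CpG dinucleotides in the *Gdf9* promoter window, 81 in that of *Zp3*, 53 in *Zp2*, 52 in *Zp1*, 43 in *Bmp15* and 22 in *Oosp1*, against a median of 51 in windows with a TSS.

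Among all 19 assigned windows, 13 were lower and 6 higher in the cKO, against 56.3% of all windows that were lower. By RPM 12 were lower, against 38.7% of all windows. On the deposited scale the groups did not overlap in 9 of them, all with the cKO below. Of all windows 19.8% did not overlap, 9.95% with the cKO below and 9.88% with the cKO above. An unadjusted p under 0.05 was found for 9 of the 19, against 14.9% of all windows. By RPM 5 of the 19 were separated with the cKO below, against 7.89% of all windows, and these were the first 2 of *Zp2*, the first of *Zp3*, the second of *Bmp15* and the last of *Oosp1*. These windows are not 19 separate observations, since windows of 1 gene share its promoter.

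**Figure D4:**
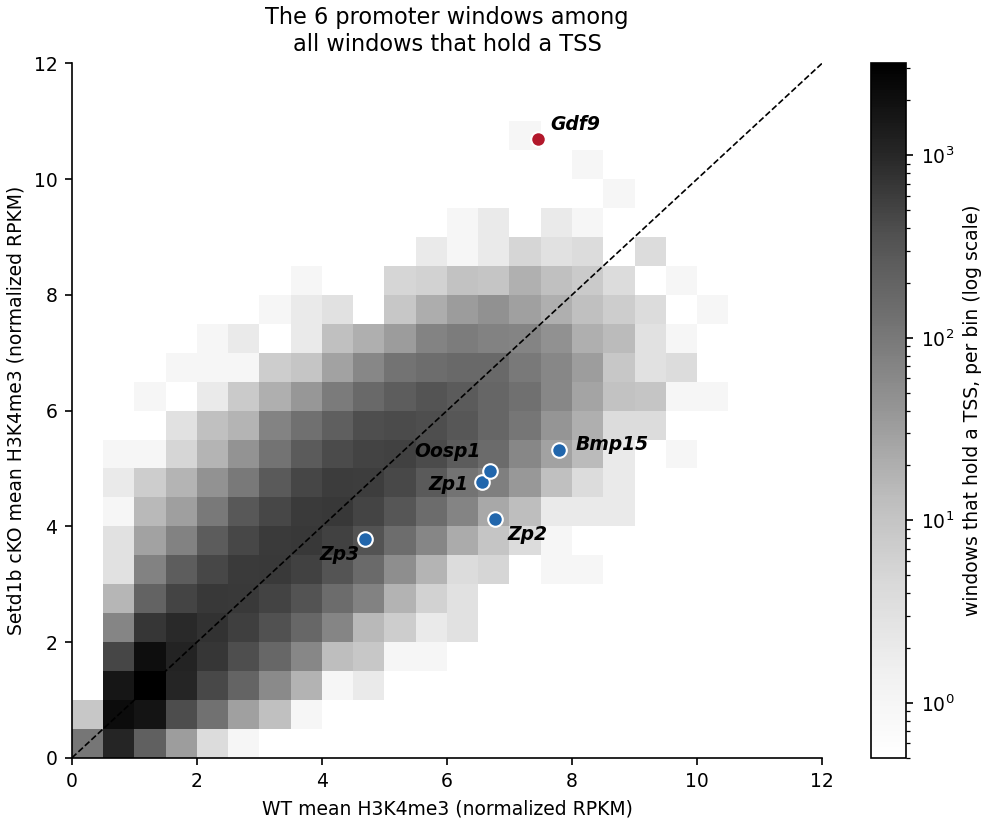
Mean H3K4me3 in the *Setd1b* cKO (y axis) against the WT (x axis), both in normalized RPKM, for the windows that hold a TSS, in bins shaded by their number on a log scale, with a dashed line of equal means and the 6 promoter windows as points (red, higher in the cKO; blue, lower). *Gdf9* lies above every other bin, and the other 5 points lie below the line, *Zp2* and *Bmp15* toward the lower side of the shaded area.

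For each member, the promoter window most like it over the 6 libraries was sought among 20268 promoter windows by the root mean square difference. It was 4930519G04Rik for *Zp1* (0.355 normalized RPKM), *Rab11fip3* for *Zp2* (0.383), *Dsc1* for *Zp3* (0.102), 8030462N17Rik for *Bmp15* (0.384) and *Mybl2* for *Oosp1* (0.272). For *Gdf9* the closest was *Macrod1*, at a larger distance of 1.07, with 9.48 in the cKO and 6.68 in the WT. None of these 6 windows was called (adjusted p = 0.0518 to 0.315).

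Other genes of the egg coat and of the signalling around these ligands were taken as lists of promoter windows, and 1.53% of all windows with a TSS were called, 0.896% as a gain and 0.638% as a loss. None of the 12 genes listed for the egg coat and egg surface was called. Their median difference was -0.33 (-0.12 without WT 1, with 6 of 12 higher, and -0.22 without WT 2). The range was from *Izumo1r*, the egg receptor for the sperm protein IZUMO1 (-1.88), to the tetraspanin *Cd9* (1.67). Of the 12, 7 were lower in the cKO and 5 higher, and the higher ones included *Tecta* (1.21), *Umod* (0.55) and *Zpld1* (0.45). *Tecta*, *Umod* and *Zpld1* are not genes of the egg coat or egg surface, although they were on the list. Of 10 regulators of the zona pellucida genes, *Gdf9* and *Bmp15*, among them *Figla*, *Nobox* and *Lhx8*, none was called, from *Tbpl2* at -0.60 to *Tcf3* at 1.24. On the deposited scale 6 of the 10 were higher in the cKO (median difference 0.059, but -0.33 without cKO 1 and -0.16 without WT 2), but 9 were lower in edgeR on whole reads and 7 were lower after division by input, so this list had no stable direction. No called change in the mark was therefore seen at these factors.

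Of 16 receptors, SMADs and processing enzymes of GDF9 and BMP15 signalling, *Smad7*, an inhibitory SMAD, was called as a gain (2.50, adjusted p = 0.0491), and its call was lost in 13 of 18 alternatives. Its difference was 0.42 after division by input, against 2.02 in the same 4 libraries without division. The window that holds the *Smad7* TSS carries the name of another gene in the deposited table. The median difference of this list was 0.54 (0.27 without cKO 1, with 10 of 16 higher), with *Smad3* lowest at -0.28. None of 10 genes that these ligands are known to control in granulosa cells was called, from *Ptx3* at -0.77 to *Npr2* at 1.56, and none of 11 other ligands of the follicle, from *Fgf10* at -1.26 to *Bmp2* at 1.95. Each of these lists had 8 genes higher in the cKO on the deposited scale and 5 in edgeR. On the deposited scale 12 of the 16 signalling genes were higher in the cKO, as after quantile normalization. In edgeR on whole reads only 8 were, so their direction differed between settings. The difference between lists was not tested.

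Markers of the cells in a follicle were read in the same way, although the mark at a promoter is not a measure of expression. The 18 oocyte identity genes had a median of 5.74 in the WT, the 12 granulosa and cumulus genes 2.97 and the 10 genes of cells outside the follicle 2.06. No oocyte identity gene was called, with a median difference of -0.20 (-0.50 without cKO 1, -0.48 without WT 2, -0.33 without WT 4 and -0.32 without cKO 3). Of the 18 genes 10 were lower in the cKO on the deposited scale, 16 in edgeR on whole reads and all 18 on log2(RPM + 0.5). The extremes were *Padi6*, a component of the oocyte cytoplasmic lattices, at -2.46 and *Npm2* at 0.49, and the 4 genes in which the cKO libraries were all below the WT libraries were *Nlrp5*, *Padi6*, *Tle6* and *Bcl2l10*, against 9.38% of windows with a TSS. Summed over the list, the cKO libraries ran from 86.7 to 100.9 normalized RPKM and the WT libraries from 105.1 to 107.3.

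All 12 granulosa and cumulus genes were higher in the cKO on the deposited scale, 11 after quantile normalization or in edgeR, and 9 after division by input. In 8 of them every cKO library was above every WT library, against 12.7% of windows with a TSS, and 1 was called, *Foxl2* (2.85, adjusted p = 0.0415), a transcription factor of granulosa cells, whose call was lost in 13 of 18 alternatives and whose difference after division by input was 1.50, against 2.02 in the same 4 libraries without division. The summed level of the 12 genes was 47.4 to 49.6 in the cKO and 35.4 to 36.2 in the WT. The windows of *Cyp19a1*, *Inha* and *Hsd17b1*, which are among the separated ones, carry the name of another gene in the deposited table. The FSH receptor gene *Fshr* was at 0.870 in the WT, above 18.1% of all windows, and at 1.27 in the cKO. Genes of cells outside the follicle summed to 25.3 to 31.2 in the cKO and 22.2 to 26 in the WT, with none called, from *Alb* at -1.10 to *Myh6* at 2.46. The part of other cells in the differences of the 6 genes was not tested.

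**Figure D5:**
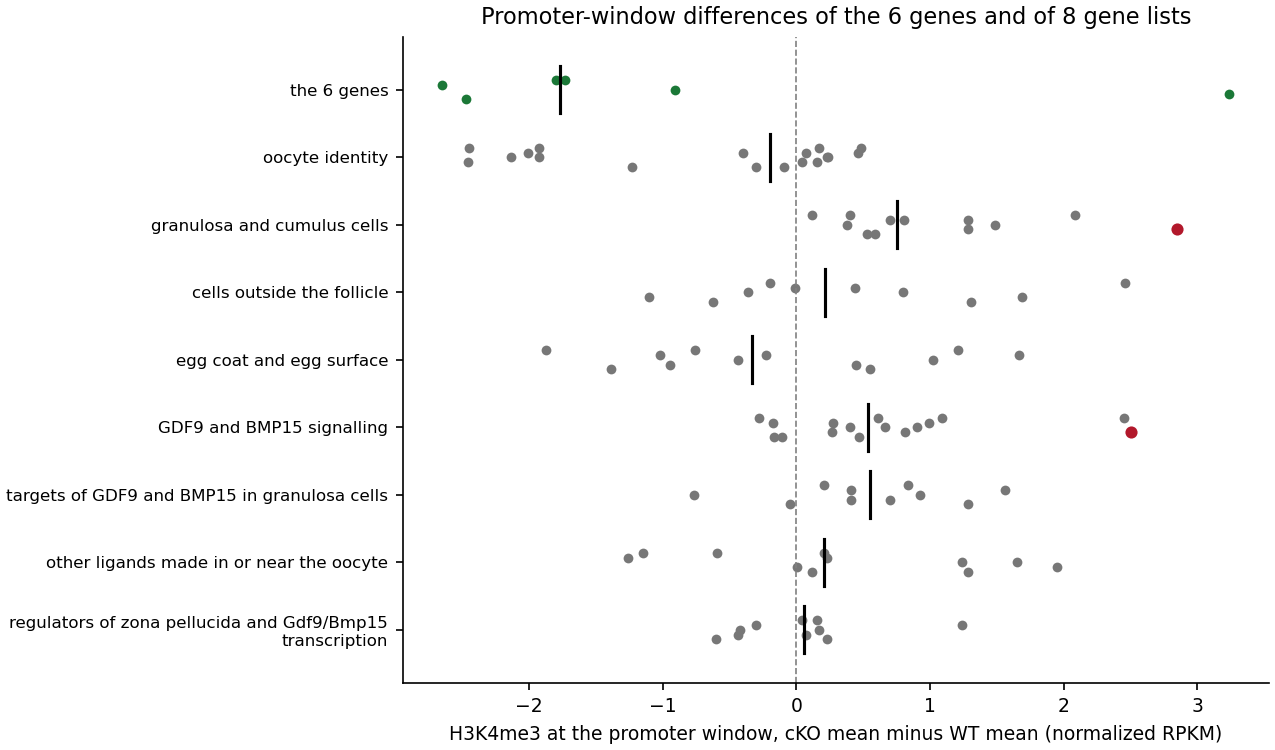
Difference in H3K4me3 at the promoter window (cKO mean minus WT mean, normalized RPKM, x axis) for the 6 genes (green) and for the genes of 8 lists (grey, 1 point per gene; red, called by limma at an adjusted p under 0.05), with a black line at the median of each row. The 6 genes split into 5 below 0 and *Gdf9* at 3.24, and the only red points are *Foxl2* and *Smad7*.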

How the data were processed

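ULI-nChIP-seq for H3K4me3 was done on GV oocytes of *Setd1b* cKO and WT females (3 libraries each), with 2 input libraries per genotype. The submitters' processing notes name Trim Galore 0.4.2, Bowtie2 2.2.9 and GRCm38. The methods of the study state a MAPQ minimum of 20, quantification of 5 kb windows in SeqMonk and the exclusion of windows with high input and of poorly enriched replicates, which are not analysed here. The H3K4me3 values are a score deposited by the authors (RPKM after enrichment normalization, linear). The input values are a signal deposited by the authors, the reads in a window scaled to the depth of the library (RPM). Genotype and replicate were taken from the sample labels, and 0 columns of values lacked a sample. The labels call the replicates of a genotype biological replicates.

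Whole reads per window were recovered, since values within a library differed by multiples of what 1 read is worth (100% of values within 0.01 of a read). Windows were compared with limma 3.58.1 in R 4.3.3 (two-sided moderated test, no intensity trend, p-values adjusted by Benjamini-Hochberg over 544879 windows, called at an adjusted p under 0.05) on the deposited scale for H3K4me3 and on log2(input + 0.5) for input. Fits were tested on simulated data. Promoter windows were those that hold the 5′ end of the gene in GENCODE M21, whose chromosome lengths equal the last window ends of the table. The 6 promoter windows rested on 34 to 228 H3K4me3 reads per library, and counting error and duplicate reads limit their precision.

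Named genes were the 6 members, genes with a TSS in their windows, for each member the gene with the most similar promoter window, and, in each list, the called genes or else the extremes in each direction. *Fshr*, *Figla*, *Nobox*, *Lhx8*, *Smad3*, *Tecta*, *Umod*, *Zpld1*, *Cyp19a1*, *Inha*, *Hsd17b1* and the separated oocyte identity genes were named after their values were seen. The members and lists were chosen with earlier results of these data known. Alternatives covered the scale, variance model, normalization, filters, chromosomes, edgeR 4.0.16 on whole reads with at least 10 reads per window, a replicate block and each library left out. Chosen after seeing the data were a fit with the value at 0 reads as covariate, log2(RPM + 0.5) of whole reads, counts of windows by RPM, and replicates 1 and 4 with and without division by input.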

Additional observations from a re-analysis of the deposited data

How the results depend on the processing

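In every alternative without input division, *Zp1*, *Zp2*, *Zp3*, *Bmp15* and *Oosp1* were lower and *Gdf9* higher in the cKO at the promoter window. *Bmp15* was not part of the fit on autosomes. In edgeR on whole reads the log2 differences were -1.0 (*Zp2*), -0.83 (*Bmp15*), -0.62 (*Zp1*), -0.56 (*Oosp1*), -0.53 (*Zp3*) and 0.25 (*Gdf9*), with an adjusted p of 0.414 to 0.904. With reads divided by input in replicates 1 and 4 (chosen after seeing the data), *Gdf9* turned to -1.27 and *Zp1* to 0.22. With an intensity trend 3 promoters passed: *Zp2* at -2.65 (adjusted p = 0.0299), *Gdf9* at 3.24 (0.000259) and *Bmp15* at -2.48 (0.0217). *Gdf9* also passed without cKO 1, at 3.60 (0.0418). With 1 library left out, the promoter differences ran from -2.40 to -0.97 (*Zp1*), -3.39 to -1.87 (*Zp2*), -1.08 to -0.73 (*Zp3*), 2.30 to 3.83 (*Gdf9*), -3.00 to -1.78 (*Bmp15*) and -2.11 to -0.99 (*Oosp1*).

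Over all windows 5539 were called (3066 gains, 2473 losses). The count was 0 on log2(value + 1), log2(value + 0.1), log2(RPM + 0.5), with the covariate, and in replicates 1 and 4 with or without input division, and also at an adjusted p under 0.01. It was 1 after quantile normalization, 19492 with an intensity trend (8540 gains, 10952 losses), 11437 in edgeR (5370 gains, 6067 losses) and 0 to 17979 with 1 library left out, the lowest without cKO 4, WT 2 or WT 4 and the highest without cKO 1. It was 1761 without cKO 3 and 1 without WT 1. The member windows called went from 1 to 3 with the intensity trend, to 4 with the replicate block, to 2 without cKO 1 and to 0 in all alternatives that gave 0 or 1 over all windows and in edgeR, so that the range with 1 library left out was 0 to 2. The *Zp1* window inside the gene turned from 0.91 to -0.067 with the covariate, -0.037 with input division and -0.19 without cKO 3 (-0.19 to 1.73 with 1 library left out). The window assigned to *Gdf9* turned from 1.46 to -0.025 (log2) in edgeR and -0.48 with input division. On input, 4 windows were called with a filter on low input, 3 with an intensity trend and 4 in edgeR, and 0 in the other alternatives. With 1 input library left out, the input log2 difference ran from -0.46 to 0.00092 at *Zp1*, -0.29 to 0.72 at *Zp3* and -0.10 to 0.23 at *Oosp1*, with the other sign without WT 4. The causes were not tested.

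Replicate numbers 1 and 4 occur in both genotypes, but the labels tie them to no shared animal or day. The deviations of same-numbered libraries correlated at 0.319 (replicate 1) and 0.0190 (replicate 4) for H3K4me3 and 0.0804 for input. A fit with the replicate block called 33433 windows and gave -2.57 at *Zp2*, 2.54 at *Gdf9* and -2.51 at *Bmp15*, past the threshold, but -0.96 at *Zp3*, -0.72 at *Zp1* and -0.56 at *Oosp1* (adjusted p = 0.287 to 0.644). The second *Bmp15* window passed at -1.90 (adjusted p = 0.0030). In the block fit cKO 3 and WT 2 were the only libraries of their number, so its differences rested on replicates 1 and 4. Replicates 1 and 4 fitted alone gave the same differences with no call (adjusted p = 0.329 at *Zp2*, 0.152 at *Gdf9*, and 0.268 and 0.202 at the first and second *Bmp15* windows).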
